A study of Rattus norvegicus with 9 samples.

Results

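The cytosolic ribosomal protein genes were described here gene by gene in single-cell RNA sequencing of rat tibial osteotomy tissue. Members were the symbols that begin with Rpl or Rps and a digit, together with Rplp0, Rplp1, Rplp2 and Rpsa. The ribosomal S6 kinases (Rps6k symbols) and the symbols that carry -ps, which mark annotated processed copies, were left out. The rule took 106 of the 41801 genes listed in the files, 63 of them Rpl symbols and 43 Rps symbols. The rule reads symbols only. It was set with earlier results of these data known, as were the contrast of 4 h against other hours and the gene-by-gene view. The cells came from young male Sprague-Dawley rats that received a circular osteotomy of the proximal tibia and a skin wound on the back of the foot. In the TO group no shock waves were given, and in the TOE group the site also received radial extracorporeal shock waves (rESWT) on days 2 and 4. In the TOE group tissue was taken 4 h or 24 h after a session, and the TOE libraries of day 2 preceded the session of day 4. The TO group had no session, so its hours are times matched to those of the TOE group, with 0 h on day 2 as a further time. All animals carried the osteotomy and the wound. The 8 libraries analysed were TO at day 2 (0 h and 4 h), TO at day 4 (4 h and 24 h), TOE at day 2 (4 h and 24 h) and TOE at day 4 (4 h and 24 h). Each condition was 1 library, the labels do not say how many rats a library holds, and the TO library of day 2 and 24 h was not analysed here.

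The ribosome is built from a large and a small subunit, and each protein is named L or S for the subunit it sits in. Most ribosomal proteins are needed in equal numbers, and their mRNAs share a run of pyrimidines at the 5′ end (the TOP motif) through which the mTOR pathway controls their translation. In marrow, ribosomal protein transcripts are abundant in dividing progenitors and scarce in cells that have stopped making most proteins, such as mature granulocytes, and haploinsufficiency of several of these genes causes Diamond-Blackfan anemia.

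After filtering, 111646 cells with 958157537 unique molecular identifiers (UMIs, each 1 counted mRNA molecule) remained, and the libraries held 12007 to 16409 cells with median depths of 4444 to 5567 UMIs per cell. Pairs of libraries shared 40 to 110 cell barcodes, at most 0.783% of the smaller library. The cells formed 31 clusters, and 28 of them were given 1 of 10 class names from marker genes. The 3 clusters without a name held 5685 cells. None of the markers of a class that are in the files was at 0 in that class. The largest class was B-cell-like, with 64852 cells, and the labelled osteotomy tissue held only 1309 mesenchymal-like cells. The TOE library of day 4 and 24 h stood apart from the others: 24.1% of its cells were neutrophil-like (5.81% to 15.2% elsewhere), and hemoglobin genes took 0.0160% of its UMIs (0.741% to 1.88% elsewhere).

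Members took 144860493 UMIs, 15.1% of all. The 5 with the most UMIs, Rpl41, Rps2 and Rplp0 among them, together held 12.7% of the members' UMIs. At the other end, 12 members had fewer than 1000 UMIs, and Rps19l1 and Rps10l1 had none. Of the 106 symbols, 24 end in l and a number (such as Rpl31l2 and Rpl37l1), which names a locus after a parent gene. Some of them, such as Rpl22l1 and Rpl7l1, are described below as paralogues. Where the sequences are close, reads could be split or lost between copy and parent, but no sequences were compared. The 1037 listed -ps copies took 0.0631% of all UMIs, and only 18 of them had any.

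**Figure D1:**
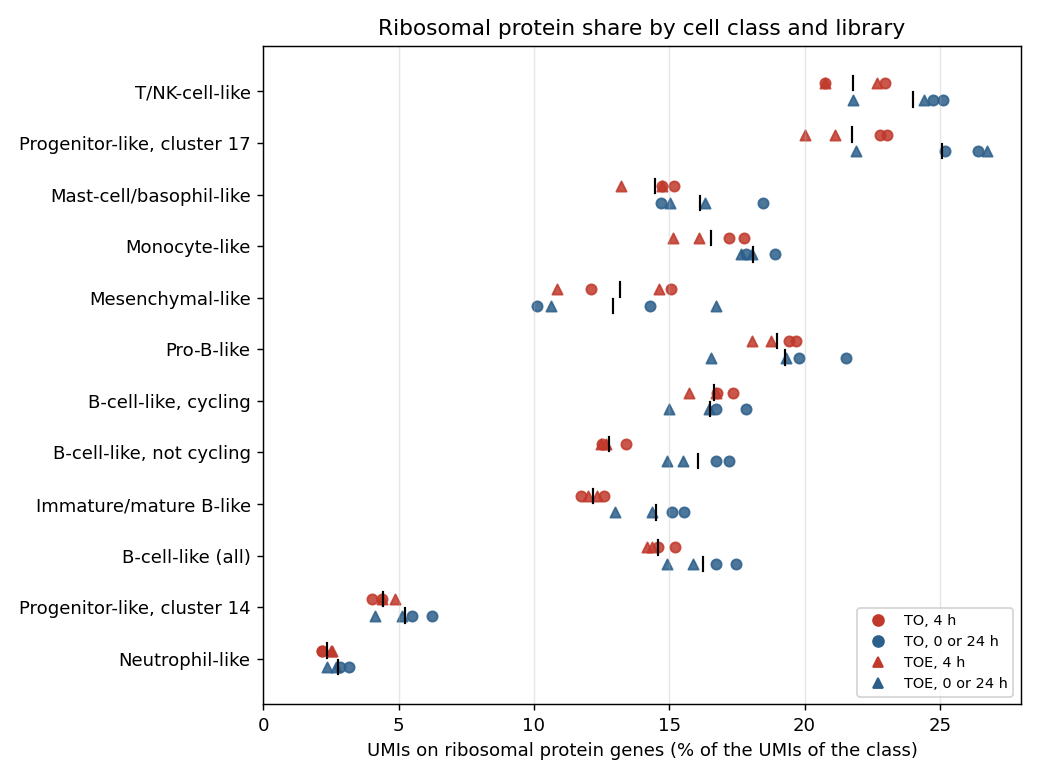
Percent of the UMIs of a class that fall on ribosomal protein genes (x axis) for each class, B-cell subset or cluster (y axis), with 1 point per library: red for 4 h, blue for 0 or 24 h, circles for TO, triangles for TOE, and a black line at each group's mean. Neutrophil-like cells lie near 2.55% and T/NK-cell-like cells near 22.9%, and within a row the red points mostly lie to the left of the blue ones, without overlap in the B-cell-like cells that were not cycling.

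The share of UMIs on ribosomal protein genes differed between cell classes, most of all between neutrophil-like cells and the rest. It was 2.55% ± 0.34 (SD, n = 8 libraries) in neutrophil-like cells, whose most abundant mRNAs encode granule and S100 proteins, and 15.4% ± 1.2 (SD, n = 8) in B-cell-like cells. The share was 17.3% ± 1.2 (SD, n = 8) in monocyte-like cells and 22.9% ± 1.7 (SD, n = 8) in T/NK-cell-like cells, of which 7 libraries held at least 50. The lowest and the highest library of the neutrophil-like class, 2.18% and 3.18%, lay below every library of every other class. The means of the other classes ran from 13.05% to 22.9%. The lowest T/NK-cell-like library, 20.8%, lay above every library of each other class except the erythroid-like. The libraries of the remaining classes overlapped: erythroid-like cells ranged from 12.7% to 25.9% and granulocyte-monocyte progenitor-like cells from 10.7% to 20.1%.

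Clusters and subsets within a lineage differed in their share. Granulocyte-monocyte progenitor-like cells split into cluster 17, at 20.0% to 26.7%, and cluster 14, at 4.00% to 6.24%, beside 2.18% to 3.18% in neutrophil-like and 15.2% to 18.9% in monocyte-like cells. Among B-cell-like cells the pro-B-like cells stood at 16.5% to 21.5% and the immature/mature cells at 11.7% to 15.6%. Early erythroid-like cells (cluster 28) stood at 23.4% to 27.0% in the 7 libraries that held at least 50 of them. Late, hemoglobin-rich ones (cluster 18) stood at 4.32% to 6.47% in 7 libraries, and the TOE library of day 4 and 24 h held 0 of them. Another erythroid-like cluster (cluster 30) stood at 11.2% and 15.4% in the 2 libraries that held at least 50 of its cells. These are shares of each class's UMIs, and they were not tested.

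A test across all genes set B-cell-like against neutrophil-like cells within libraries. Levels of single genes are given as CPM, the UMIs of the gene scaled to a common total per library and class. All 5 of the most abundant members were higher in B-cell-like cells: Rpl41 stood at 4664 ± 1140 CPM (SD, n = 8) against 970 ± 320, and Rplp0, the stalk protein that anchors the P1 and P2 proteins, at 3547 ± 286 against 825 ± 131. Of 94 members tested, 91 were higher in B-cell-like cells and 1 was lower by edgeR's quasi-likelihood test at an adjusted p of 0.05, where 43.9% of all 16044 genes were higher and 37.8% lower. The median log2 difference was 1.42 over the members and 0.16 over all genes with TMM scaling, which sets library sizes so that most genes do not differ. With total UMIs as the only scaling these medians were 2.63 and 1.37. Under it 93 members were higher and 0 lower, where 69.5% of all genes were higher and 19.4% lower. Neutrophil markers take 229810 to 331907 CPM of their class, and the scaling sets where zero lies. The member that was lower with TMM scaling was Rps4y2, a relative of Rps4x, at a log2 difference of -1.60 ± 0.22 (SE). Rps9 (-0.26 ± 0.13) and Rpl31l2 (0.36 ± 0.28) did not pass.

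Genes listed as paralogues of a core protein had patterns of their own. Rpl3l, the counterpart of Rpl3 best known from heart and skeletal muscle, stood at 124 ± 29 CPM (SD, n = 8) in B-cell-like cells and at means of 5.71 to 10.9 in the other 9 classes. Its lowest B-cell-like library, 98.2, lay above the highest library of any other class, 19.7. Against neutrophil-like cells the log2 difference was 2.51 ± 0.10 (SE), with an adjusted p of 8.34e-12 by edgeR's quasi-likelihood test.

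Rpl39l, the counterpart of Rpl39 known from male germ cells, stood at 60.4 ± 25.3 CPM (SD, n = 8) in mesenchymal-like cells. Its mean elsewhere was at most 4.09, in endothelial-like cells, where only 3 libraries held 50 cells. Rps4y2 had its highest mean in endothelial-like cells (43.0 ± 10.5, SD, n = 3), followed by granulocyte-monocyte progenitor-like cells (30.6 ± 9.4, n = 8), and these ranges overlapped. Rps27l, a p53 target related to Rps27, ranged from 34.0 ± 6.1 in neutrophil-like to 491 ± 156 in erythroid-like cells. Rpl22l1, the counterpart of Rpl22, was highest in T/NK-cell-like cells at 701 ± 99 (SD, n = 7) and lowest in neutrophil-like cells at 122 ± 31. Rpl7l1 was highest in B-cell-like cells (111 ± 20), and its range there, 81.9 to 135, overlapped those of T/NK-cell-like and erythroid-like cells. CPM values are not corrected for transcript length, so each gene is compared only with itself.

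**Figure D2:**
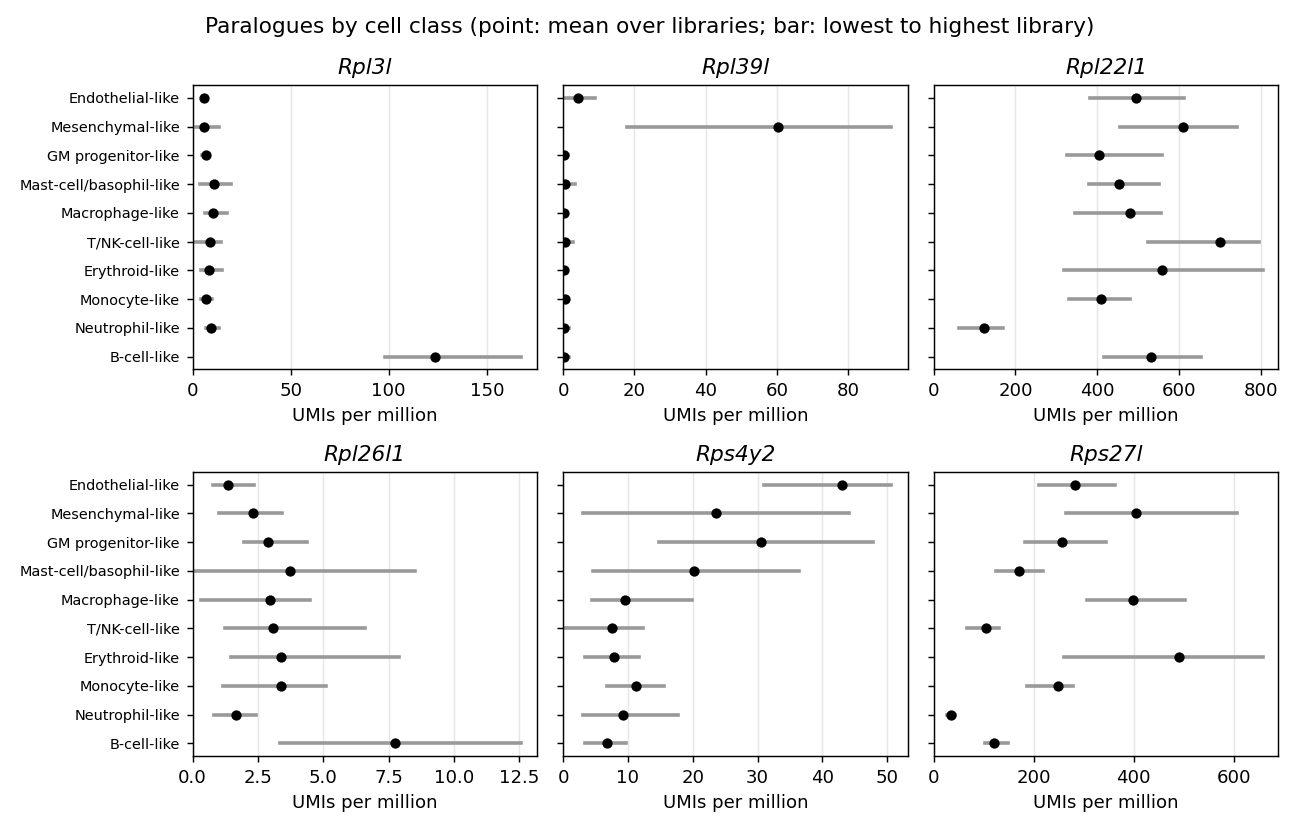
CPM (x axes) of 6 paralogues of core ribosomal proteins in 10 cell classes (y axis), with the mean over libraries as a point and the lowest to highest library with at least 50 cells as a bar. Rpl3l stands at 124 in B-cell-like cells against at most 10.9 elsewhere, and Rpl39l at 60.4 in mesenchymal-like cells against at most 4.09 elsewhere.

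The design repeats the 4 h time in both groups and on both days. The 4 libraries taken at 4 h were compared with the 4 taken at 0 or 24 h. This contrast was chosen with earlier results known, in which single genes had shifted in opposite ways. Over all cells, members took 14.7% and 13.8% of UMIs in the TO libraries at 4 h of days 2 and 4, and 14.3% and 14.4% in the TOE libraries. At the other hours they took 17.01% (TO, day 2, 0 h), 17.05% (TO, day 4, 24 h), 15.5% (TOE, day 2, 24 h) and 13.9% (TOE, day 4, 24 h). The means were 14.3% ± 0.4 and 15.9% ± 1.5 (SD, n = 4), a difference of -1.58 percentage points, and the groups overlapped only through the TOE library of day 4 and 24 h. With every class weighted by its mean share of UMIs over the 8 libraries, the ranges were 13.7% to 14.7% at 4 h and 14.5% to 16.6% at other hours, which still overlap. No test was made of these shares.

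By class the mean share was lower at 4 h in 9 of 10 classes, with mesenchymal-like cells the exception. The 2 groups of libraries failed to overlap only in endothelial-like cells, of which some libraries held as few as 17. The B-cell-like class split by cycling state. Cells outside the cycling clusters stood at 12.5% to 13.4% at 4 h and 14.9% to 17.2% at other hours, a difference of -3.32 points with no overlap. Cycling cells stood at 15.7% to 17.4% and 15.0% to 17.8%, but their 2 clusters moved in opposite directions and changed in size. Cluster 2 (8165 cells at 4 h, 616 at other hours) stood at 15.8% to 17.7% and 13.5% to 15.7%. Cluster 6 (568 and 4708 cells) stood at 6.36% to 11.9% and 15.0% to 17.9%. Immature/mature cells also separated, at 11.7% to 12.6% against 13.01% to 15.6%. Monocyte-like cells stood at 15.2% to 17.8% against 17.7% to 18.9%, and neutrophil-like cells at 2.18% to 2.53% against 2.35% to 3.18%.

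Several other measures moved with the hour. Different clusters held most cells of a class: among B-cell-like cells, clusters 8 and 2 held 33.5% and 25.0% at 4 h and 1.61% and 1.91% at other hours, while cluster 0 held 0.804% and 38.5%. Among monocyte-like cells, cluster 20 held 68.9% at 4 h and cluster 19 held 63.7% at other hours. Mitochondrial genes took 1.21% to 1.82% of UMIs at 4 h and 1.44% to 3.05% at other hours. The -ps copies summed to 776 to 835 CPM at 4 h and 465 to 575 at other hours in B-cell-like cells. The part of these measures in the results below was not tested except where a value is given, and the labels name no batch, so the hour and anything else the 4 libraries at 4 h share cannot be told apart.

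The lower total hid opposite movements of single genes. In B-cell-like cells, 36 members fell and 13 rose at 4 h among 98 tested (edgeR's quasi-likelihood test with group and day as covariates, adjusted p under 0.05 over 17617 genes), against 7.64% of all genes that fell and 6.76% that rose. In neutrophil-like cells 25 fell and 6 rose of 90 tested, against 3.84% and 3.74% of all genes. In monocyte-like cells 22 fell and 19 rose of 93 tested, against 6.63% and 6.65%. The median log2 fold change of the members was -0.27, -0.35 and -0.17 in the 3 classes, and that of all genes lay between -0.03 and 0.00. With total UMIs as the only scaling, 19 fell and 10 rose in neutrophil-like cells, where 2.5% of all genes fell and 8.39% rose. The median of all genes moved to 0.18 there. These fits use different cells of the same 8 libraries. They are not independent of each other.

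**Figure D3:**
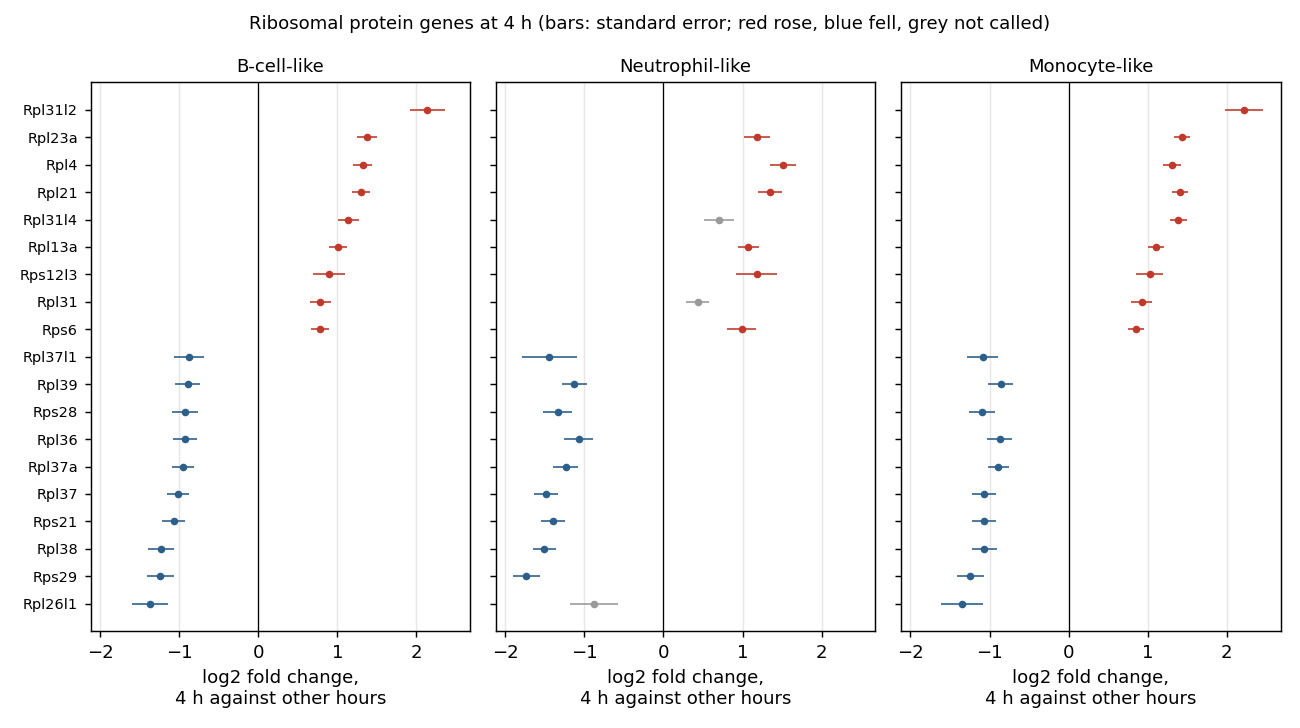
Log2 fold change at 4 h against other hours (x axes, with standard errors as bars) of the members among the 8 largest rises or the 8 largest falls past the test in at least 1 of 3 classes (y axis, ordered by the value in B-cell-like cells), red where it rose, blue where it fell and grey where it was not called. Rpl23a, Rpl4, Rpl21 and Rpl13a lie above 1 in every panel, and Rps29, Rpl38, Rps21 and Rpl37 lie below -1 in every panel.

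Several of the largest falls were in genes for small ribosomal proteins, although in B-cell-like and monocyte-like cells the paralogue Rpl26l1 fell the most. Rps29, a zinc-binding protein of the small subunit head, stood in B-cell-like cells at 2507 and 1763 CPM in the TO libraries and 1617 and 1958 in the TOE libraries of 4 h (days 2 and 4). At the other hours it stood at 4504 (TO, day 2, 0 h), 4379 (TO, day 4, 24 h), 3707 (TOE, day 2, 24 h) and 5008 (TOE, day 4, 24 h). The groups were far apart, and the library that stood apart in cell makeup had the highest value of all. The log2 fold change was -1.24 ± 0.17 (SE) with an adjusted p of 0.00898. In neutrophil-like cells Rps29 stood at 273 to 357 at 4 h and 823 to 1038 at other hours (-1.73 ± 0.17, adjusted p = 0.00336), and in monocyte-like cells at 1574 to 2473 and 4223 to 5067 (-1.24 ± 0.17, adjusted p = 0.00885).

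Rpl38, a large-subunit protein whose loss in mice changes the translation of Hox mRNAs, stood in B-cell-like cells at 635, 462, 393 and 489 CPM at 4 h, in the same order of libraries. At the other hours it stood at 1228, 1027, 988 and 1160. The log2 fold change was -1.23 ± 0.16 (adjusted p = 0.00788) in B-cell-like, -1.50 ± 0.15 (0.00353) in neutrophil-like and -1.07 ± 0.16 (0.0107) in monocyte-like cells. Rpl37, a zinc-finger protein of the large subunit, stood at 1636, 1298, 1114 and 1347 in B-cell-like cells at 4 h and at 2678, 2697, 2323 and 2612 at other hours. Every library at other hours exceeded every library at 4 h for both genes.

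Of a list of 10 genes for small ribosomal proteins (Rpl36a, Rpl37, Rpl37a, Rpl38, Rpl39, Rpl41, Rps21, Rps27, Rps28 and Rps29), 9 fell in each of the 3 classes, where 7.64%, 3.84% and 6.63% of all genes fell. The list does not hold every small member: the paralogues Rps27l and Rpl39l, for example, are not on it. Among all members 36 of 98, 25 of 90 and 22 of 93 fell. The list was chosen with earlier results of these data known, so its count is a description and not independent support. These calls depended on single libraries: without the TO library of day 2 and 0 h, 0 of the 10 passed in B-cell-like cells and 2 in monocyte-like cells, and without the TO library of day 4 and 4 h, 4 passed in neutrophil-like and 2 in monocyte-like cells. Of all genes 0.491% and 0.604% fell in the first pair of these fits and 0.33% and 0.609% in the second. All 10 stayed below 0 on the log2 scale in each of the 3 classes, whichever library was left out. The member that did not pass was Rpl36a, with log2 fold changes of -0.28 ± 0.16, -0.58 ± 0.18 and -0.44 ± 0.14. The list's median log2 fold change was -0.94 in B-cell-like, -1.29 in neutrophil-like and -0.98 in monocyte-like cells. Together the 10 took 16.2% of the members' UMIs in B-cell-like cells at other hours and 10.3% at 4 h. In neutrophil-like cells they took 19.9% and 11.1%, and in monocyte-like cells 16.1% and 9.54%. Rpl41, the shortest of all with a peptide of mostly basic residues, remained the member with the most UMIs over the series and fell by 0.65 ± 0.15 on the log2 scale in B-cell-like cells, from 5032 to 6593 down to 3257 to 4466.

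Other members that fell were Rpl36, Rps26, Rpl27a, Rps20 and Rpl39, with log2 fold changes of -0.79 to -0.93 in B-cell-like cells. Rpl26l1, a close relative of Rpl26, had the lowest fold change of the class (-1.37 ± 0.22, adjusted p = 0.013) at levels of only 3.33 to 12.6 CPM. It fell in monocyte-like cells (-1.35 ± 0.27) and stood at -0.88 ± 0.30 without passing in neutrophil-like cells. Rpl37l1, a copy of Rpl37, fell in all 3 classes (-0.87 ± 0.19, -1.44 ± 0.35 and -1.09 ± 0.20) at levels of at most 12.3 CPM, where reads of the parent could contribute.

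The rises were as large and belonged to other genes. Rpl4, one of the longest proteins of the large subunit, with a loop that lines the exit tunnel, stood in B-cell-like cells at 1182, 1148, 1156 and 1133 CPM at 4 h. At the other hours it stood at 438, 500, 385 and 439. The 4 values at 4 h lay within a few percent of each other and more than doubled the others, with a log2 fold change of 1.32 ± 0.12 (adjusted p = 0.00323). It was 1.52 ± 0.16 (0.00425) in neutrophil-like cells, from 38.2 to 54.8 up to 130 to 182, and 1.31 ± 0.11 (0.00299) in monocyte-like cells.

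Rpl23a, which sits at the mouth of the exit tunnel and binds the signal recognition particle, stood at 2197, 2216, 2311 and 2192 in B-cell-like cells at 4 h and at 790, 941, 708 and 830 at other hours. Its log2 fold change was 1.38 ± 0.13 (adjusted p = 0.00323), 1.18 ± 0.16 (0.00882) and 1.44 ± 0.10 (0.00186) in B-cell-like, neutrophil-like and monocyte-like cells. Rpl13a, known also for a role outside the ribosome in the interferon-γ response of monocytes, stood at 3379, 3443, 3384 and 3249 at 4 h and at 1568, 1763, 1507 and 1514 at other hours in B-cell-like cells. Again no library of one group reached the other.

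Rpl21 rose by 1.30 ± 0.12 (SE), 1.34 ± 0.15 and 1.41 ± 0.11 on the log2 scale in the 3 classes. Rpl31 rose in B-cell-like (0.79 ± 0.13) and monocyte-like cells (0.92 ± 0.13) and stood at 0.43 ± 0.15 without passing in neutrophil-like cells. Its copies Rpl31l2 and Rpl31l4 rose in the same 2 classes, by 2.14 ± 0.23 and 1.14 ± 0.13 in B-cell-like cells. Their levels were at most 3.65 and 48.8 CPM there against 1781 of the parent. Rps6, the small-subunit protein phosphorylated downstream of mTOR, rose in all 3 classes (0.78 ± 0.11, 0.99 ± 0.18 and 0.85 ± 0.11). Rps15 and Rpl27 rose in B-cell-like and monocyte-like cells, by 0.64 to 0.89.

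**Figure D4:**
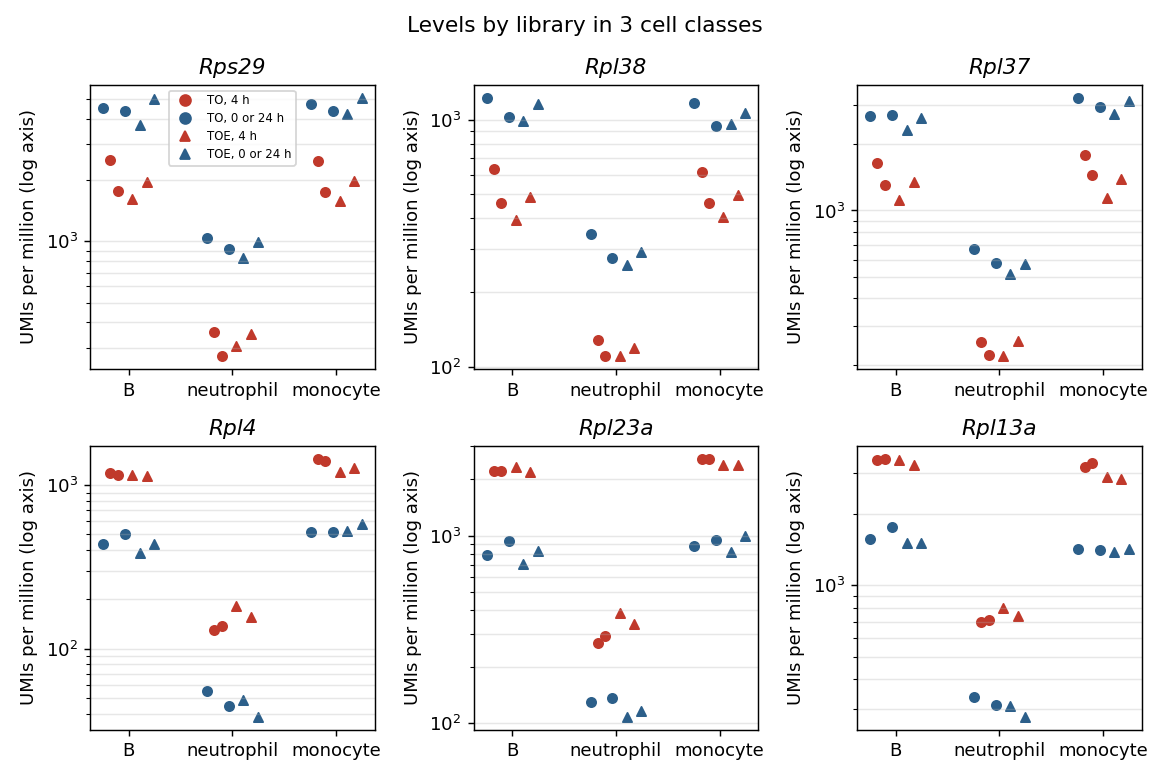
CPM (y axes, log scale) of 3 members that fell (Rps29, Rpl38, Rpl37) and 3 that rose (Rpl4, Rpl23a, Rpl13a) at 4 h, with 1 point per library in B-cell-like, neutrophil-like and monocyte-like cells: red for 4 h, blue for 0 or 24 h, circles for TO, triangles for TOE. Red and blue points do not overlap in any panel and class, although neutrophil-like levels are several times lower than the others.

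Windows of 30 bases around the annotated start are printed to show pyrimidine runs near it. They belong to the 4 members with the largest falls and the 4 with the largest rises in B-cell-like cells that have an entry in RefSeq's promoter table (assembly GRCr8). Each window holds 15 bases before the start and 15 from it, on the strand of the gene. Capitals mark the longest unbroken run of C and T that touches the 5 bases on either side of the start. In Rpl26l1, Rpl38, Rpl21 and Rpl13a the capitals end before the annotated start, so those bases are not in the annotated mRNA.
Rpl26l1 (fell, chr10:17029014-17029043, minus strand): aaatgtcaTTTCCgggcctgcgcacacacc
Rpl38 (fell, chr10:100200420-100200449, plus strand): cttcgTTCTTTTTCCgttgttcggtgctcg
Rps21 (fell, chr3:187724023-187724052, plus strand): gaacgagccaCTTCCTTTCTgtgttctccg
Rpl37 (fell, chr2:55942930-55942959, plus strand): tggtaggcgtaCTTTCTCTTCCggtctctt
Rpl31l2 (rose, chr10:33876407-33876436, plus strand): ccattttcggaCTTTCCatcccacaatccc
Rpl4 (rose, chr8:73566462-73566491, plus strand): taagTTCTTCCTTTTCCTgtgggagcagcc
Rpl21 (rose, chr12:13386139-13386168, minus strand): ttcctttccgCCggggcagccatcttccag
Rpl13a (rose, chr1:104748899-104748928, minus strand): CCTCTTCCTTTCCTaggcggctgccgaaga

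Of the 106 members, 82 had an entry, and 53 of these (64.6%) held such a run of at least 5 bases, against 29.1% of all 27457 promoters in the table. The run was present in 25 of the 31 members with an entry that fell in B-cell-like cells, in 6 of the 9 that rose and in 22 of the 38 tested that were not called. Rpl4 and Rpl13a, which rose, carried runs of 14 bases, and Rpl38 and Rps21, which fell, carried runs of 10. Runs of C and T near the start thus occurred on both sides. They include runs that end before the start, so these are not counts of the TOP motif. The match is by letters in the annotated window and on the strand of the gene only, and an annotated start can differ from the one used in these cells.

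Members with named roles were described by their own calls, and differences between them were not tested. Of the P stalk proteins that recruit elongation factors, Rplp1 fell in all 3 classes (-0.62 ± 0.11, -0.93 ± 0.14 and -0.59 ± 0.11), while Rplp0 stood at -0.06 ± 0.11, -0.40 ± 0.16 and -0.11 ± 0.12 and Rplp2 at -0.02 ± 0.12, -0.31 ± 0.14 and 0.05 ± 0.11, none of which passed. Rpsa, which doubles as a laminin receptor, did not pass either (-0.37 ± 0.13, -0.25 ± 0.17 and -0.28 ± 0.11). Rpl5 and Rpl11, the partners that bind 5S rRNA and can restrain Mdm2, each passed in 1 of the 3 classes. Rpl11 fell in B-cell-like cells (-0.51 ± 0.11, adjusted p = 0.0271 by edgeR) and stood at -0.59 ± 0.18 in neutrophil-like and -0.35 ± 0.11 in monocyte-like cells, neither of which passed. Rpl5 rose in monocyte-like cells (0.45 ± 0.11, adjusted p = 0.0385 by edgeR) and stood at 0.23 ± 0.11 in B-cell-like and 0.42 ± 0.17 in neutrophil-like cells, neither of which passed. Of 12 genes linked to Diamond-Blackfan anemia or 5q- syndrome, 3 fell and 0 rose in B-cell-like cells, 2 fell and 0 rose in neutrophil-like cells, and 1 fell and 3 rose in monocyte-like cells. Among all members 36 fell and 13 rose of 98, 25 and 6 of 90, and 22 and 19 of 93, and among all genes 7.64% and 6.76%, 3.84% and 3.74%, and 6.63% and 6.65%. Rps26, one of them, fell in all 3 (-0.85 ± 0.12, -0.87 ± 0.14 and -0.75 ± 0.15). Rps14 rose in monocyte-like cells by 0.40 ± 0.10.

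Among the paralogues Rpl26l1 alone passed in B-cell-like and monocyte-like cells, and none passed in neutrophil-like cells, where 6 of the 9 listed were tested. Rps19bp1, which carries the name but is a binding partner of Rps19 and not a subunit, fell by 0.70 ± 0.18 in B-cell-like cells and stood at -0.38 ± 0.27 and -0.46 ± 0.16 elsewhere. Of other abundant members, Rps27a, made as a fusion with ubiquitin, fell in B-cell-like (-0.52 ± 0.11) and neutrophil-like cells (-0.67 ± 0.14), and Rps2 passed in none (-0.28 ± 0.13, -0.49 ± 0.25 and -0.29 ± 0.13).

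The libraries of the 2 groups did not overlap for 42 members that were lower and 20 that were higher at 4 h in B-cell-like cells, where 10.5% and 14% of all genes did the same. In neutrophil-like cells the counts were 29 and 18 (5.12% and 17.8% of all genes), and in monocyte-like cells 40 and 23 (11.6% and 10.4%).

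The same contrast was run in each smaller class with at least 50 cells in all 8 libraries. In pro-B-like cells, which formed 1 cluster at both times, 20 members fell and 16 rose of 92 tested, against 4.3% and 4.32% of all genes. Rps29 (-1.10 ± 0.16, adjusted p = 0.00515), Rpl38 (-1.15 ± 0.16), Rpl4 (1.48 ± 0.13, adjusted p = 0.000447) and Rpl23a (1.38 ± 0.13) changed there by about as much as in all B-cell-like cells. Cycling B-cell-like cells had 19 falls and 19 rises of 94 (5.92% and 6.48% of all genes). Those not cycling had 48 falls and 11 rises of 96 (12.5% and 10.8%), and immature/mature cells had 35 and 12 of 93 (7.39% and 7.19%).

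Granulocyte-monocyte progenitor-like cells had 23 falls and 7 rises of 93 (4.6% and 2.38% of all genes). Cluster 17 alone, which held 37.6% of the class at 4 h and 35.2% at other hours, had 49 and 15 of 93 (10.8% and 9.1%). Cluster 14 alone had 37 and 6 of 89 (5% and 3.72%). Mast-cell/basophil-like cells had 28 falls and 9 rises of 86 (3.36% and 2.33%). The balance in these 4 depended on the scaling. With total UMIs as the only scaling, where the median of all genes moved to between 0.18 and 0.29, 12 fell and 14 rose in granulocyte-monocyte progenitor-like cells (2.68% and 15.8% of all genes). Under it 38 fell and 21 rose in cluster 17 (5.53% and 25.3%), 26 and 13 in cluster 14 (2.9% and 16.3%), and 15 and 11 in mast-cell/basophil-like cells (1.71% and 6.72%). In erythroid-like and mesenchymal-like cells 0 members passed of 94 tested in each, where 0.0327% and 0.0487% of all genes rose and 0.0981% and 0.0893% fell. At an unadjusted p under 0.05 the counts there were 49 and 30 members (52.1% and 31.9%), where 17.3% and 20.6% of all genes had such a p. With total UMIs as the only scaling they were 23 and 19 members (24.5% and 20.2%), against 12.2% and 21.7% of all genes. The smallest library held 79 erythroid-like and 62 mesenchymal-like cells, and 46.5% of the erythroid-like cells at 4 h came from cluster 30, which held 0.523% at other hours.

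Whether the hour changed members differently between classes was tested as an interaction within libraries. Between B-cell-like and neutrophil-like cells, 1 of 97 members passed, against 6.42% of all genes. This was Rps4y2, which stood at -0.20 ± 0.32 in B-cell-like and 0.99 ± 0.32 in neutrophil-like cells, a difference of -1.21 (adjusted p = 0.0225, edgeR's quasi-likelihood test). Neither of its own changes passed, and its levels were 3.07 to 17.7 CPM in neutrophil-like cells. Between B-cell-like and monocyte-like cells 0 of 99 members passed, against 0.965% of all genes, and 11 members (11.1%) had an unadjusted p under 0.05, against 17.1% of all genes.

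Leaving out 1 library at a time lowered the counts in most cases, for the members as for all genes. In B-cell-like cells, where 14.4% of all genes were called, 49 calls became 6 without the TO library of day 2 and 0 h, 18 and 14 without the TO libraries of 4 h (days 2 and 4), 12 without the TO library of day 4 and 24 h, and 32 and 30 without the TOE libraries of day 2 and 24 h and of day 4 and 4 h. In neutrophil-like cells (7.58% of all genes called) 31 calls became 14, 14, 6, 12, 10 and 17 without the 4 TO libraries (0 h, 4 h, 4 h and 24 h) and the 2 TOE libraries of 4 h, and 48 without the TOE library of day 4 and 24 h. In monocyte-like cells (13.3%) 41 calls became 11, 19, 12 and 14 without the 4 TO libraries in that order and 22 without the TOE library of day 2 and 24 h. Without 1 of the 4 TO libraries, 0.703% to 1.26% of all genes were called in B-cell-like cells, 0.538% to 2.27% in neutrophil-like cells and 1.66% to 1.95% in monocyte-like cells. Without 1 of the TOE libraries of day 2 (4 h and 24 h) and day 4 (4 h and 24 h), the shares were 12.8%, 12.2%, 6.6% and 27.4% in B-cell-like cells, 1.24%, 4.51%, 1.38% and 17% in neutrophil-like cells, and 3.48%, 5.41%, 5.61% and 24.1% in monocyte-like cells. Without the TO library of day 2 and 0 h, 6 members rose and 0 fell in B-cell-like cells. In monocyte-like cells 2 falls were left without that library or without the TO library of day 4 and 4 h, and in neutrophil-like cells 4 were left without the latter. The genes that passed under every one of 19 alternatives in B-cell-like cells, Rpl4, Rpl21, Rpl23a, Rpl13a, Rpl31l2 and Rpl31l4, were all rises. Over the 8 fits that leave out a library, Rps29 had log2 fold changes of -1.42 to -1.11 there, with adjusted p-values of up to 0.0507. In neutrophil-like cells the falls of Rps29, Rpl38, Rpl37 and Rps21 passed in all 8 of these fits, and in monocyte-like cells those of Rps29 and Rpl37 did. With library sizes set to the members' own UMIs, the counts were 22 falls and 22 rises in B-cell-like, 10 and 18 in neutrophil-like and 18 and 23 in monocyte-like cells. Under that scaling 3.88% of all genes fell and 15.5% rose in B-cell-like, 1.35% and 16.1% in neutrophil-like and 2.73% and 9.48% in monocyte-like cells. It centres the members on their own total, so the balance of their falls and rises is set by the scaling.

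Genes outside the rule that share the TOP motif or work with the ribosome were counted from lists. Of 22 translation factors and other TOP mRNAs, 6 fell and 3 rose in B-cell-like cells, 2 fell and 1 rose in neutrophil-like cells, and 5 fell and 3 rose in monocyte-like cells, with list medians of -0.13, 0.11 and 0.06. Of all genes 7.64% fell and 6.76% rose in B-cell-like, 3.84% and 3.74% in neutrophil-like and 6.63% and 6.65% in monocyte-like cells, and 1 call among 22 lies near such shares. Fau, which encodes a ribosomal protein as a fusion to a ubiquitin-like sequence, fell in all 3 classes, by 0.91 ± 0.11, 1.12 ± 0.13 and 0.62 ± 0.11 on the log2 scale. Eef1a1, which delivers aminoacyl-tRNA, fell in B-cell-like (-1.03 ± 0.16) and monocyte-like cells (-0.83 ± 0.14), while Eef1g, a subunit of its exchange factor, rose in both (0.87 ± 0.14 and 0.91 ± 0.11). Pabpc1, the cytoplasmic poly(A)-binding protein, rose in all 3 (1.13 ± 0.14, 0.88 ± 0.18 and 1.36 ± 0.15).

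Of 29 ribosome biogenesis factors in the files, 0 passed in B-cell-like cells by edgeR, with 7 at an unadjusted p under 0.05 (32.6% of all genes had such a p), and Nop56, a box C/D snoRNP core protein, rose in neutrophil-like (0.82 ± 0.20) and monocyte-like cells (0.38 ± 0.10). In B-cell-like cells that were not cycling, 7 of the 29 fell and 0 rose, among them Nhp2 (-0.97 ± 0.21) and Ebna1bp2 (-0.92 ± 0.18), where 12.5% of all genes fell and 10.8% rose. In cluster 17 the calls went the other way, with 6 that rose and 0 that fell (9.1% and 10.8% of all genes), and in cluster 14 and in all granulocyte-monocyte progenitor-like cells 2 rose and 0 fell (3.72% and 5% of all genes in cluster 14, and 2.38% and 4.6% in the class). Of 16 genes that restrain translation or mark stress, Deptor, an inhibitor of mTOR, rose (0.99 ± 0.21) and Eif4ebp1, which sequesters the cap-binding protein eIF4E, fell (-0.51 ± 0.13) in B-cell-like cells. These were the 2 calls there, 1 in each direction, about the share of all genes (6.76% rose and 7.64% fell). In monocyte-like cells Eif2ak2, a kinase activated by double-stranded RNA, was the 1 call (-0.63 ± 0.14, where 6.63% of all genes fell), and in neutrophil-like cells 0 of the 16 passed by edgeR, with 2 at an unadjusted p under 0.05 (25.6% of all genes).

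The paper asked whether shock waves at the osteotomy site promote healing of a foot wound. Its single-cell sequencing was meant to trace the cells that release vesicles. The comparison of members between TOE and TO is a separate question. No member passed between TOE and TO in B-cell-like, neutrophil-like or monocyte-like cells, with 0% of all genes called in each. At an unadjusted p under 0.05 edgeR gave 1, 0 and 4 members (1.02%, 0% and 4.3%, against 3.03%, 3.92% and 10.5% of all genes), and DESeq2 also called 0 members and 2, 1 and 58 of all genes. The members' median log2 fold change was -0.17, -0.03 and -0.17, and that of all genes was 0.01, 0.04 and 0.02. In the smaller classes and subsets 0 members passed as well, where 0.00894% of all genes were called in cluster 17. At an unadjusted p under 0.05 there were 22 members in cluster 17 (23.7%, against 5.55% of all genes) and 20 in pro-B-like cells (21.7%, against 10.2%), and at most 2 in each of the others. In the 3 matched pairs the share over all cells was 14.3% in TOE against 14.7% in TO at day 2 and 4 h, 14.4% against 13.8% at day 4 and 4 h, and 13.9% against 17.05% at day 4 and 24 h. The direction over all cells differed between pairs. Within B-cell-like cells the share was lower in TOE in all 3 pairs (14.2% against 15.2%, 14.4% against 14.6% and 15.9% against 17.4%, in the same order). It was also lower in all 3 within monocyte-like cells (15.2% against 17.8%, 16.1% against 17.2% and 17.7% against 17.8%). In neutrophil-like cells it was higher in TOE in both pairs of 4 h (2.53% against 2.18% and 2.49% against 2.18%) and lower in the pair of 24 h (2.35% against 2.82%). These shares were not tested. The interaction of group and hour gave 0 members in each of the 3 classes by edgeR, with 0, 5 and 1 at an unadjusted p under 0.05 (1.57%, 3.79% and 6.93% of all genes had such a p), where 0%, 0% and 0.0069% of all genes were called. A fit over the 6 libraries of these pairs, with the pair as a block, called 0 members and 0 of all genes in each of the 3 classes by edgeR. At an unadjusted p under 0.05 it gave 0, 1 and 0 members, against 7.46%, 8.02% and 9.65% of all genes. Each pair is 1 library against 1, and no pair was tested alone.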

How the data were processed

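Cells of rat tibial osteotomy tissue were profiled by 10x Genomics 3′ sequencing. The authors deposited 1 matrix of raw UMI counts per library, with genes, cell barcodes and counts in separate files. The labels name Cell Ranger 9.0.0, R 4.0.3 and Seurat and the builds GRCh38 and mRatBN7.2 without giving their roles. Counts are per gene, so reads that fit several near-identical copies may have been dropped before deposit. The 8 libraries held 95954800 to 144146202 UMIs. Shares and levels carry counting error and 1 library per condition. Replicates of the hour contrast are libraries of different group and day, and nothing says how many animals each holds, so p-values measure the spread between these libraries.

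The filter on cells required 200 detected genes and allowed up to 20% of UMIs on mitochondrial genes, and predicted doublets (Scrublet score above 0.25, 2.43% to 4.15% per library) were removed. The threshold was fixed, since the automatic one marked 0 cells in 4 libraries. Cells were clustered with scanpy 1.11.5 on 2000 variable genes without ribosomal protein genes, 30 components and Leiden resolution 1. Clusters took a class name where at least 3 listed markers were raised 2-fold in at least 10% of cells. The naming rule was set after the clusters had been seen. Counts were summed per library and class and fitted with edgeR 4.0.16 (R 4.3.3), with TMM scaling, filterByExpr, group, day and hour as terms, and Benjamini-Hochberg adjustment over all genes tested. TMM scales each library so that most genes do not change. B-cell-like and neutrophil-like sums were compared with library as a block. The count test was run on simulated data with 17774 genes for B-cell-like cells. Of 97 genes changed by a log2 fold of 1, 88.7% were recovered, and of 93 changed by 2, 100%. There were also 14 false calls. Alternatives included DESeq2 1.42.0, other scalings and filters, other clusterings and leaving out each library. The splits by cycling and by clusters 14 and 17, the sums with -ps copies, the total-UMI scaling of the class comparison, the other scalings in smaller classes, the fit of matched pairs and the interactions were chosen after seeing the data.

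Named genes were, in each class, the 8 largest rises and the 8 largest falls past the threshold, the 5 members with the most UMIs, and the listed paralogues, P stalk, 5S RNP and anemia genes. Of the other lists, members past the threshold could be named. Rpl27a, Rps20, Rps9, Rps15 and Rpl27 were named after their values were seen. A few genes are not reported here by name, and counts include them. Members and lists were chosen with earlier results of these data known. Promoter windows came from RefSeq's table (GRCr8), matched by symbol.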

Additional observations from a re-analysis of the deposited data

Results flagged for a closer look

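Of 121 groups of 4 libraries examined by Dixon's test for a library far from its group, 3 passed the critical value, where chance gives about 1 in 20. In B-cell-like cells at 4 h, Rpl3l stood at 119 CPM in the TOE library of day 4, apart from the other 3 libraries. In neutrophil-like cells at the other hours, Rpl3l stood at 7.09 in the TOE library of day 4 and 24 h, again apart from the rest. In monocyte-like cells at the other hours, Rpl4 stood at 582 in that same TOE library and at 518 to 526 in the other 3, which is below every library at 4 h. The change of Rps4y2 at 4 h differed between B-cell-like and neutrophil-like cells by -1.21 on the log2 scale, by the interaction test in edgeR. The cause of these values was not tested.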

How the results depend on the processing

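The labels give no replicate number shared between groups. Blocking on the 3 pairs of equal day and hour, chosen after seeing the data, left TOE against TO at 0 called members in B-cell-like, neutrophil-like and monocyte-like cells. Leaving out 1 library at a time gave 6 to 57 called members in B-cell-like cells (49 with all libraries), 6 to 48 in neutrophil-like cells (31) and 11 to 50 in monocyte-like cells (41). The highest counts came without the TOE library of day 4 and 24 h, where 27.4%, 17% and 24.1% of all genes were called, against 14.4%, 7.58% and 13.3% with all libraries. The mean share of neutrophil-like cells was 3.33% with Leiden resolution 0.5 and 3.81% with doublets kept, and that of granulocyte-monocyte progenitor-like cells was 23.1% with Leiden resolution 0.5. Cluster 17 alone gave 64 called members, against 30 with both progenitor clusters. The difference in share over all cells kept its sign under every alternative, from -2.23 to -1.18 percentage points. No fold change of a named gene that passed the test reversed. Over the alternatives other than leaving out a library, 31 of the named genes' results lost their call, 24 gained one and 1320 kept their side of the threshold. When a library was left out, 191 lost their call, 17 gained one and 792 kept their side. Where a count moved, the cause was not tested.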

Other observations

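The -ps copies were not members, and in B-cell-like cells they did not all follow their parents at 4 h. The copies of Rpl37a stood at 50.9 to 99.2 CPM at 4 h and at 12.5 to 22.9 at other hours, while Rpl37a itself fell by 0.95 ± 0.14 (SE) on the log2 scale. The copies of Rps14 stood at 316 to 329 and 132 to 229, beside a log2 fold change of 0.19 ± 0.11 in Rps14 that did not pass. The copies of Rpl10a stood at 35.1 to 37.9 and 13.1 to 18.2, and Rpl10a rose by 0.51 ± 0.12. Those of Rpl34 were also higher at 4 h without overlap (52.6 to 57.0 and 20.5 to 34.0). For the copies of Rpl9, Rpl19, Rps7, Rps15a and Rps20 the 2 groups of libraries overlapped. These copies share sequence with their parents, and how reads were divided between them was not tested.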
